A study of Mus musculus with 6 samples.

Results

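Livers that carried metastases were compared directly with livers in the premetastatic phase, 21 days after CT26 cells had been given to BALB/c mice. CT26 is an undifferentiated mouse colon carcinoma line of BALB/c origin. The labels intra-C and intra-S mark the 2 tumor groups. They are read here as the 2 routes the study describes, orthotopic inoculation of the cecum and injection into the spleen. The livers of the cecal model were free of detectable metastases at that time, as the study states, and intra-C livers are called premetastatic here. Blood from the spleen drains to the liver, so that injected cells are seeded there directly, and intra-S livers are called metastatic. Each group held 2 livers, described as biological replicates, and 2 livers of mice given PBS (sham) supplied background levels. The mice of the tumor models were between 6 and 10 weeks old, and the labels name no genetic alteration in any group. Fewer cells were given by the splenic than by the cecal route, so that the route, the cell number, the site of the primary tumor and the presence of metastases cannot be told apart. The comparison set 4 of the 6 livers against each other, and no liver was chosen by a measured value. The sham livers also entered the fits, where they helped to estimate the spread between livers.

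Poly(A) RNA of whole liver was sequenced, which holds hepatocytes, resident and infiltrating cells and, in metastatic livers, tumor cells. Hepatocytes secrete most plasma proteins and carry out bile acid synthesis, drug oxidation and lipid production, and they change this output during inflammation in the acute phase response, in which IL-6 acts through STAT3. The liver is also a site of blood formation in the fetus, and in the adult it may take this up again when demand is high. A bulk value cannot separate fewer cells of one type from less RNA per cell.

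Between 32838321 and 43368309 reads were counted per liver, and levels are given as CPM, counts relative to the library total, after TMM scaling, which adjusts for differences in RNA composition. At these depths 3 reads, the limit that a count of 0 allows, correspond to 0.0679 to 0.0928 CPM. Hepatocyte transcripts were abundant in every liver, with Alb, the gene of serum albumin, at 120680.0 and 84369 CPM in premetastatic and 156590.0 and 108440.0 CPM in metastatic livers. Across genes, the Pearson correlation of log2 levels was 0.968 between the premetastatic livers and 0.928 between the metastatic livers, so that metastatic livers 1 and 2 differed more from each other. Metastatic liver 2 correlated more closely with the premetastatic livers (0.957 and 0.955) than with metastatic liver 1, whose correlations with them were 0.921 and 0.915. Reads of genes encoded in mitochondria made up 3.13% and 2.62% in premetastatic, 5.70% and 3.25% in metastatic, and 5.84% and 5.57% in sham livers.

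Of 20140 listed genes, 16370 had enough reads to be tested. In 3577 of them (21.9%) both metastatic livers lay above both premetastatic livers, and in 3513 (21.5%) both lay below, whereas the livers overlapped in 9280 genes. On the deposited TPM, which are divided by transcript length before each liver is scaled to a fixed total, 2795 genes lay above and 4329 below, so that the even split holds for TMM-scaled counts and not for TPM. These shares are the background against which the members of each gene group are read below. The smallest gap between a liver of one group and a liver of the other (the margin, on the log2 scale with a prior count of 2 and negative where metastatic livers were lower) reached a factor of 2 in 293 of the genes above and 264 of those below, a factor of 4 in 57 and 23, and a factor of 8 in 9 and 6. edgeR's quasi-likelihood test called no gene at an adjusted p of 0.05, that is 0% higher and 0% lower, and its smallest adjusted p was 0.113. That fit included the sham livers, and with only the 4 livers compared the smallest adjusted p was 0.592. Without adjustment, 1144 genes (6.99%) were higher and 1049 (6.41%) lower at p under 0.05. DESeq2, which treats the spread differently, called 240 of 15100 genes (1.59%) higher and 284 (1.88%) lower in metastatic livers. Leaving out metastatic liver 1, edgeR called 24 genes higher and 31 lower, and leaving out metastatic liver 2, 1312 higher and 1572 lower. No exact permutation of 2 against 2 livers can give a p-value under 0.333. The differences that follow are therefore described as levels in each liver, with edgeR's log2 difference ± SE (n = 2 livers per group) and, where given, DESeq2's adjusted p. Of the 169 genes named with levels in the text, DESeq2 called 94.

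**Figure D1:**
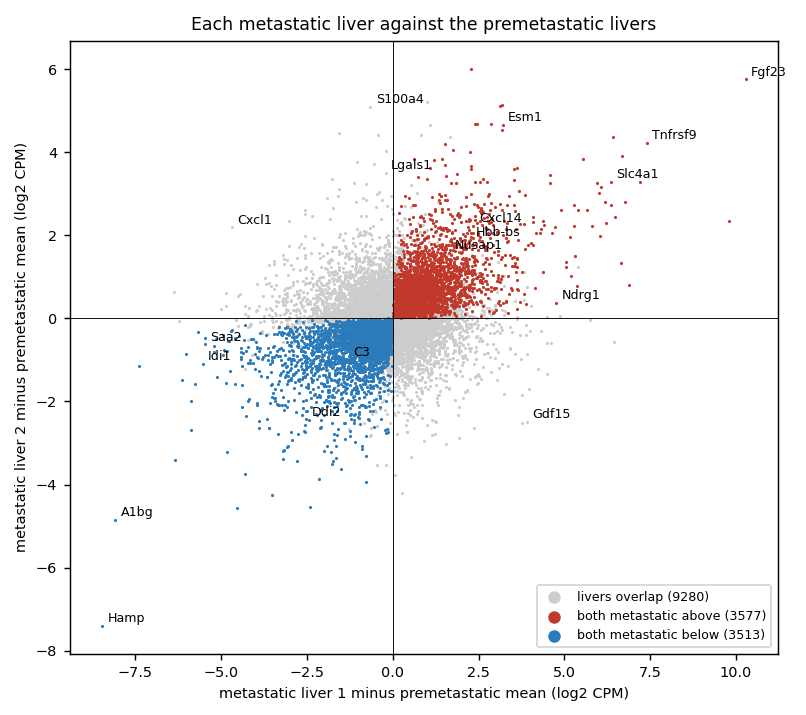
Log2 difference of metastatic liver 1 (horizontal axis) and metastatic liver 2 (vertical axis) from the mean of the premetastatic livers, 1 point per tested gene, in log2 CPM. Red points are the 3577 genes with both metastatic livers above, blue points the 3513 genes with both below and gray points the 9280 genes that overlap, and Fgf23 and Hamp lie at the opposite ends.

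Metastatic liver 1 departed farther from the premetastatic livers. It was the farther one in 2188 of the 3577 genes above and in 2251 of the 3513 genes below, as the plot of both metastatic livers against the premetastatic mean shows. In 1643 further genes metastatic liver 1 lay above and metastatic liver 2 below both premetastatic livers, and 1928 genes showed the converse.

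The side on which a gene lay followed the length of its transcript, as implied by the ratio of counts to TPM. In the shortest sixth of the genes 34.3% lay above and 11.7% below, and in the longest sixth 13.7% lay above and 32.0% below. The median log2 difference went from 0.27 in the shortest to -0.16 in the longest sixth. Premetastatic and sham livers lay at the ends of this trend with metastatic liver 1 between them and metastatic liver 2 near the sham livers. Short genes of premetastatic livers deviated from the mean of the 6 livers by a median of -0.18 in both, against -0.07 and 0.17 in metastatic and 0.17 and 0.21 in sham livers. Lists of mostly short genes moved with it. Of 88 genes of cytosolic ribosomal proteins 67 lay above and 0 below, of 81 nuclear genes of the respiratory chain 67 and 1, and of 13 genes encoded in mitochondria 5 and 0. The cause of the trend was not tested. The counts of genes without overlap, over all genes and in each list, and the edgeR calls were therefore repeated on levels from which the trend with length had been removed in each liver, an alternative chosen after the data were seen. It left 3483 genes (21.3%) above and 3418 (20.9%) below, between 20.2% and 22.6% in every length class, and 3045 of the 3577 and 3021 of the 3513 genes stayed on their side. Of the 88 ribosomal, 81 respiratory chain and 13 mitochondrial genes, 55, 28 and 1 then lay above and 2, 2 and 0 below. The ribosomal genes thus still lay above far more often than all genes.

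**Figure D2:**
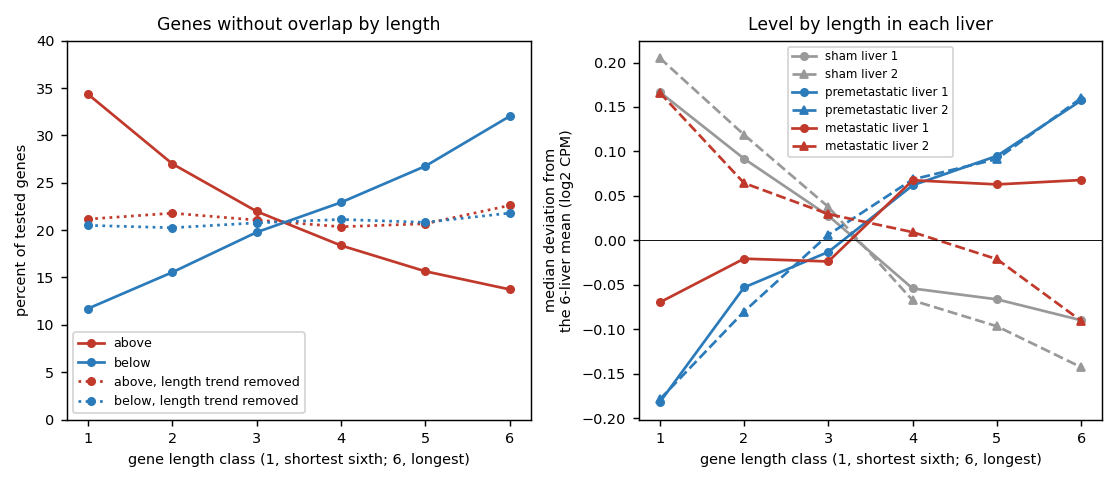
Left, percent of tested genes with both metastatic livers above (red) or below (blue) both premetastatic livers in 6 classes of transcript length, before (solid) and after (dotted) removal of the length trend. Right, median deviation of each liver from the 6-liver mean in log2 CPM by length class, where the premetastatic livers go from -0.18 in the shortest to 0.16 in the longest class.

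The genes with the widest gaps upward were of varied function. Fgf23, the phosphate-regulating hormone of bone (chr6:127072902-127082296 in GRCm38, the build also called mm10), had 2 reads and 0 reads in the premetastatic livers and 0 in both sham livers, but was at 90.9 and 3.901 CPM in the metastatic livers. Tnfrsf9, the T cell costimulatory receptor 4-1BB (chr4:150920155-150946104), was at 0.0509 and 0.0309 CPM in premetastatic and 15.6 and 1.67 CPM in metastatic livers. Ptges, the inducible prostaglandin E synthase (chr2:30889471-30931020), was at 0.102 and 0.0309 against 9.59 and 2.26 CPM. In all of these metastatic liver 1 was the higher liver, and DESeq2 gave adjusted p values of 0.0277, 8.69e-06 and 2.77e-06.

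Some genes of this set were alike in the metastatic livers. Cxcl14, a chemokine, was at 3.29 and 2.63 CPM in premetastatic, 15.2 and 13.98 CPM in metastatic and 0 CPM in sham livers (log2 difference 2.30 ± 0.29, DESeq2 adjusted p = 2.63e-07). Tmem119, known as a microglial marker and from bone-forming cells, was at 1.32 and 0.557 against 6.07 and 8.81 CPM, and Cfap69, a protein of cilia and flagella, at 1.12 and 0.526 against 8.19 and 5.37 CPM. The set also held the very low density lipoprotein receptor Vldlr (0.204 and 0.247 against 11.7 and 1.64 CPM), whose sham level of 4.04 and 2.92 CPM lay between those of the metastatic livers, and the fatty acid receptor Ffar4 (0.637 and 0.247 against 48.97 and 3.09 CPM). Eno2, Ankrd37 and Slc4a1 are taken up below with their groups. Ctsj (0.255 and 0.526 against 10.1 and 3.95 CPM) and the predicted gene Gm41857 (0.509 and 0.6497 against 24.6 and 2.87 CPM) also belonged to it.

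**Figure D3:**
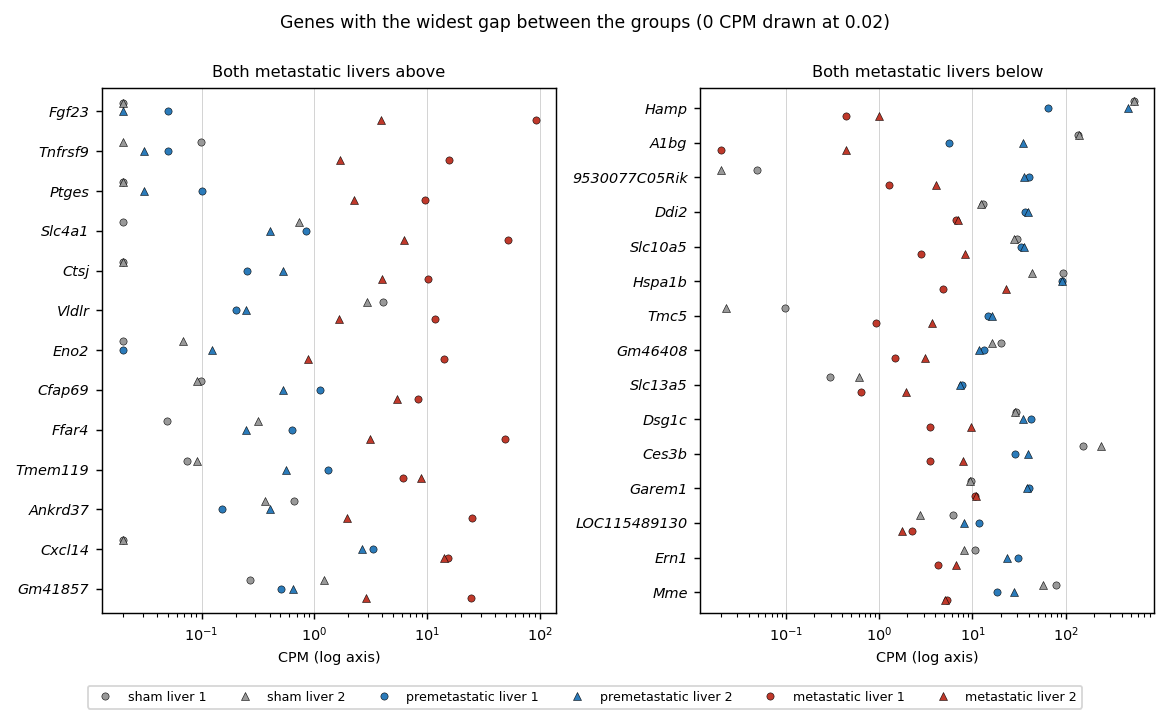
CPM (log axis) of 13 of the genes with the widest gap above (left) and 15 of those below (right) in each of the 6 livers, with circles for liver 1 and triangles for liver 2 of a group. Levels of 0 are drawn at 0.02, and Hamp has the widest gap of all, with 65.3 CPM in the nearer premetastatic and 0.981 CPM in the nearer metastatic liver.

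Hamp, the gene of hepcidin, had the widest gap of all 16370 genes. Hepcidin is the hepatocyte hormone that closes the iron exporter ferroportin and so limits the entry of iron into plasma. Hamp lies at chr7:30942368-30944029 on the minus strand and stood at 65.3 and 464 CPM in premetastatic, at 0.437 and 0.981 CPM in metastatic and at 537 and 536 CPM in sham livers. Both metastatic livers were thus far below every other liver, although the premetastatic livers differed widely from each other (log2 difference -8.52 ± 1.13, DESeq2 adjusted p = 6.11e-24). Its neighbor and close copy Hamp2 (chr7:30922372-30924181) was at 2.44 and 6.93 CPM in premetastatic, 0 and 0.343 CPM in metastatic and 503 and 330.5 CPM in sham livers. Hamp2 was therefore far below its sham level in premetastatic livers too, and the unique alignment of reads between the copies is uncertain.

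The 250 bases before the start of both genes are shown because hepcidin transcription is known to answer to IL-6 through a STAT site and to BMP signals through a SMAD element, and because Hamp and Hamp2 differed in premetastatic livers. Capitals mark TTCNNNGAA, the letters of a STAT site, and GGCGCC, those of the BMP-responsive element. Both were searched on both strands after the values had been seen, in RefSeq promoters of GRCm38.p6 (chr7:30944030-30944279 and chr7:30924182-30924431, both read 5′ to 3′ on the minus strand).
Hamp: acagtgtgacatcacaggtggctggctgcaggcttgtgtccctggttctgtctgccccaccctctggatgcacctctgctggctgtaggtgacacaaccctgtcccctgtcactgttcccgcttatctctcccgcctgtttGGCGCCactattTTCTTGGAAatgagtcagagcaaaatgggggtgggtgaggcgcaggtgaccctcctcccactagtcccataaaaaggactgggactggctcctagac
Hamp2: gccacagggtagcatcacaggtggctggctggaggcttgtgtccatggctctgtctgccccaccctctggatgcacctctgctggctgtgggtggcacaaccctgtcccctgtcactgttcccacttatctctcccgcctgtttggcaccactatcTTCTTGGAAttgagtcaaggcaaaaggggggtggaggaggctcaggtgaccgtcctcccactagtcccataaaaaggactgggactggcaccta
In Hamp, GGCGCC began 109 and TTCTTGGAA 97 bases before the start. In Hamp2, TTCTTGGAA began 94 bases before the start and the letters GGCGCC were not found in the window. Of all 32851 promoters of this length, 7.02% held TTCNNNGAA and 9.59% held GGCGCC. A match of letters is a description and not evidence of binding.

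Other genes of iron handling differed less than Hamp. Of 27 tested genes of this list, 4 lay above and 8 below (14.8% and 29.6%). Tfrc, the transferrin receptor that brings iron into cells, was at 72.3 and 69.2 CPM in premetastatic and 179 and 108 CPM in metastatic livers. Aco1, the iron-sensing protein IRP1, was at 146 and 173 against 73.96 and 86.7 CPM (DESeq2 adjusted p = 0.00504), and Tmprss6, the protease that lowers hepcidin by cleaving hemojuvelin, at 349 and 304 against 204 and 197 CPM (DESeq2 adjusted p = 0.0347). The ferritin chains Ftl1 (1564 and 1234 against 2516 and 1872 CPM) and Fth1 (1138 and 1079.7 against 1278 and 1594 CPM) and transferrin, Trf (50655 and 46718 against 63711 and 57874 CPM), lay slightly above. For Ftl1 the gap closed when the length trend was removed.

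Red cell genes were higher in both metastatic livers. Of 48 tested genes of the erythroid lists, 30 (62.5%) lay above and 5 (10.4%) below, against 21.9% and 21.5% of all genes, and 31 and 6 with the length trend removed. Their median log2 difference was 1.70, with 2.14 in metastatic liver 1 and 0.77 in liver 2, against 0.03 for all genes. DESeq2 called 16 of them higher and 0 lower.

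All 4 tested globin genes lay above. Hbb-bs, the main adult beta globin, was at 223 and 146 CPM in premetastatic, 865 and 673 CPM in metastatic and 123 and 214 CPM in sham livers (log2 difference 2.06 ± 0.36, DESeq2 adjusted p = 7.20e-05). Hba-a1, an alpha globin, was at 141 and 82.8 CPM in premetastatic, 575 and 376 CPM in metastatic and 77.02 and 139 CPM in sham livers. Premetastatic and sham livers thus overlapped for these genes, and only the metastatic livers stood apart. Hbb-bt (30.7 and 19.9 against 169.6 and 102 CPM) and Hba-a2 (6.595 and 3.06 against 26.4 and 23.2 CPM) followed them, although reads of globin copies cannot always be assigned uniquely. The list held 10 globin symbols, and only these 4 occur in the deposited counts.

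Genes that act during the maturation of red cell precursors lay above as well. Alas2, the erythroid enzyme that starts heme synthesis, was at 6.72 and 5.97 CPM in premetastatic and 25.8 and 19.4 CPM in metastatic livers (log2 difference 1.83 ± 0.28, DESeq2 adjusted p = 4.97e-05), and at 5.54 and 8.01 CPM in sham livers. Of 15 tested genes of the red cell membrane and its skeleton, 12 lay above and 1 below. Slc4a1, the anion exchanger band 3, was at 0.8403 and 0.402 against 51.9 and 6.18 CPM (DESeq2 adjusted p = 0.1501), and metastatic liver 1 led. Cldn13 and Add2 were at or near 0 in the 4 other livers and in the metastatic livers at 3.15 and 0.442 CPM and at 4.17 and 0.515 CPM respectively (DESeq2 adjusted p = 0.397 and 0.00764). The 1 gene below was Epb41, protein 4.1R, which many cell types share, at 84.1 and 94.9 against 74.02 and 38.8 CPM.

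Among erythroid transcription factors, Klf1, the master factor of adult globin transcription, was at 0.229 and 0.247 CPM in premetastatic and 2.92 and 1.01 CPM in metastatic livers, and Hemgn at 0.153 and 0.155 against 6.095 and 1.202 CPM. Gata1, which drives erythroid and megakaryocyte fate, was at 0.0764 and 0.464 against 2.39 and 0.393 CPM and overlapped. Trim10 (0.229 and 0.186 against 5.37 and 1.25 CPM) and the carbonic anhydrase Car2 (4.53 and 2.97 against 39.7 and 10.7 CPM) lay above with DESeq2 adjusted p values of 0.00466 and 0.00152. Outside Alas2, heme synthesis genes that all tissues use did not share this pattern, since Cpox (85.2 and 91.4 against 55.96 and 61.4 CPM), Fech (113 and 109 against 69.9 and 88.2 CPM) and Abcb10 (24.9 and 27.1 against 16.1 and 21.3 CPM) lay below. The share of blood or of blood-forming cells in each liver was not measured, and its part in these levels was not tested.

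The promoters of Alas2 and Hbb-bs are shown as members that were alike in both metastatic livers. Capitals mark GATAA, the letters bound by GATA1, and CACCC, those bound by KLF1, on either strand (chrX:150547167-150547416, plus strand, and chr7:103827929-103828178, minus strand, GRCm38.p6, RefSeq).
Alas2: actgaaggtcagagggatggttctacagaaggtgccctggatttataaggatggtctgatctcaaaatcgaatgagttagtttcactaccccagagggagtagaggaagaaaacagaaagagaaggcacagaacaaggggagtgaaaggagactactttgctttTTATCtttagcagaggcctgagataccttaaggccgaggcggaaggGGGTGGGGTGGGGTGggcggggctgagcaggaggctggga
Hbb-bs: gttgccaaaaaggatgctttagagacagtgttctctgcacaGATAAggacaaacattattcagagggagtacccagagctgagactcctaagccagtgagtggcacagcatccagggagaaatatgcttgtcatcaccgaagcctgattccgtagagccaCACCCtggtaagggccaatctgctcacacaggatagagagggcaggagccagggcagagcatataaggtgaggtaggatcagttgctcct
In Alas2 the GATAA letters lay on the opposite strand 86 bases before the start, and CACCC at 3 positions within 40 bases of it. Promoters were found for 31 of the 48 erythroid genes, with 37 starts. GATAA was present in 45.9% of them and in 22.6% of all promoters, and CACCC in 67.6% and 52.0%. All 4 globin promoters held both.

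Genes of platelets and blood progenitors were also above more often than below. Of 14 tested platelet and megakaryocyte genes, 7 lay above and 0 below, among them Thbs1, thrombospondin 1, at 5.04 and 6.497 CPM in premetastatic and 24.8 and 12.05 CPM in metastatic livers. DESeq2 called 0 of these 14. Of 10 tested progenitor genes 5 lay above and 0 below. Sox4, a factor of progenitor and tumor cells, was at 0.662 and 0.588 against 22.5 and 1.67 CPM, led by metastatic liver 1.

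Genes of mitosis were higher in both metastatic livers, and those of DNA replication much less so. Of 23 tested mitosis genes 19 (82.6%) lay above and 0 below, also with the length trend removed, with a median log2 difference of 1.26 (1.01 in metastatic liver 1 and 1.17 in liver 2). Nusap1, a spindle protein, was at 1.71 and 1.39 CPM in premetastatic, 4.93 and 4.69 CPM in metastatic and 0.813 and 0.8602 CPM in sham livers (log2 difference 1.63 ± 0.34, DESeq2 adjusted p = 0.00531). Birc5, survivin, was at 1.401 and 0.835 against 4.695 and 3.705 CPM (DESeq2 adjusted p = 0.00871). Mki67, the proliferation marker Ki-67, was at 11.7 and 16.5 against 47.7 and 28.1 CPM with 6.26 and 3.06 CPM in sham livers. The metastatic livers were close to each other for Nusap1, Hmmr (0.789 and 1.08 against 2.68 and 2.75 CPM) and Ube2c (0.917 and 1.67 against 3.704 and 3.53 CPM), and premetastatic livers lay above sham livers for Mki67. DESeq2 called 3 of the 23.

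Of 15 tested genes of DNA replication 5 lay above and 1 below, and of 15 genes of G1/S transition and origin licensing 3 and 2. Rrm2, a subunit of ribonucleotide reductase, was at 3.13 and 2.38 against 6.74 and 5.84 CPM, but Mcm10 overlapped at 14.9 and 5.32 against 2.800 and 10.1 CPM and was higher in sham livers (19.02 and 27.6 CPM). Which cells divided cannot be read from bulk tissue, since tumor cells, red cell precursors and hepatocytes share these genes.

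Ube2c, the ubiquitin-conjugating enzyme of the anaphase-promoting complex, had the widest gap among mitosis genes whose promoter held both CCAAT, the letters of NF-Y, and TTTGAA, the cell cycle homology region of G2/M genes. It is shown with both in capitals (chr2:164769679-164769928, plus strand, GRCm38.p6, RefSeq).
Ube2c: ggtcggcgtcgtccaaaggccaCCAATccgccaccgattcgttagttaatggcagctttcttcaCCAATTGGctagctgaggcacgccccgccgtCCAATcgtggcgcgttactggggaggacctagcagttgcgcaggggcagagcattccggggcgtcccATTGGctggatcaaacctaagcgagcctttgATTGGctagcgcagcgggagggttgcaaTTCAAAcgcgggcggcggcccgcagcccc
CCAAT or its complement occurred 6 times and TTTGAA, on the opposite strand, once at 29 bases before the start. Over 19 starts of 18 mitosis genes with a promoter, 89.5% held CCAAT and 42.1% both motifs, against 33.8% and 5.55% of all promoters. For 13 matched genes of DNA replication, with 17 starts, CCAAT was present in 41.2% and TTTGAA in 5.88%.

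Genes of glycolysis and the response to low oxygen were higher in metastatic livers, most of all in liver 1. Of 25 tested genes 13 (52%) lay above and 1 below, and the median difference was 1.90 in metastatic liver 1 and 0.32 in liver 2. Pkm, the pyruvate kinase of proliferating tissues, was at 32.03 and 47.9 CPM in premetastatic and 177 and 99.7 CPM in metastatic livers (DESeq2 adjusted p = 0.000753). Aldoa, aldolase A, was at 85.1 and 90.3 against 526 and 178 CPM (DESeq2 adjusted p = 0.00498), and Tpi1, triosephosphate isomerase, at 236 and 226 against 794 and 384 CPM. Both metastatic livers were above for these. Bnip3, a mitophagy receptor induced by HIF-1, was at 229 and 225 against 2316 and 251 CPM, and Ndrg1 at 8.63 and 11.97 against 276 and 13.2 CPM, so that only metastatic liver 1 stood far apart. The gap of Bnip3 closed when the length trend was removed. The glucose transporter Slc2a1 (6.88 and 5.57 against 58.97 and 6.600 CPM) and the HIF-1 targets Vegfa (109 and 82.1 against 391 and 77.9 CPM) and Adm (1.91 and 1.05 against 19.1 and 1.05 CPM) overlapped in the same manner. Eno2, the neuronal enolase, which is not in the list, was at 0 and 0.124 against 14.1 and 0.883 CPM (DESeq2 adjusted p = 0.132). Hif1a, whose protein is regulated by its stability, was at 47.2 and 41.5 against 49.4 and 37.5 CPM.

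Ankrd37, a known HIF-1 target, had the widest gap of this list, at 0.153 and 0.402 CPM in premetastatic, 24.7 and 1.96 CPM in metastatic and 0.665 and 0.362 CPM in sham livers (log2 difference 5.60 ± 1.30, DESeq2 adjusted p = 2.56e-05). Its promoter is shown with ACGTG, the core of the hypoxia response element, in capitals (chr8:45999851-46000100, minus strand, GRCm38.p6, RefSeq). This motif was chosen after the values had been seen, and it is also part of the clock motif CACGTG.
Ankrd37: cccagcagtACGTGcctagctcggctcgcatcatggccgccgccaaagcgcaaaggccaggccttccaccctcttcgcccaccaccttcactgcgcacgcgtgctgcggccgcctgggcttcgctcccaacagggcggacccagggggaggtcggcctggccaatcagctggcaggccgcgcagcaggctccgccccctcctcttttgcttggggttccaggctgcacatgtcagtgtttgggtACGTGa
ACGTG began 241 and 6 bases before the start. It was present in 50% of the 34 starts of the list and in 16.6% of all promoters. The list of clock genes, whose CACGTG was present in 28.6% of 21 starts against 6.02% of all, had 0 genes above and 1 below among 19 tested.

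**Figure D4:**
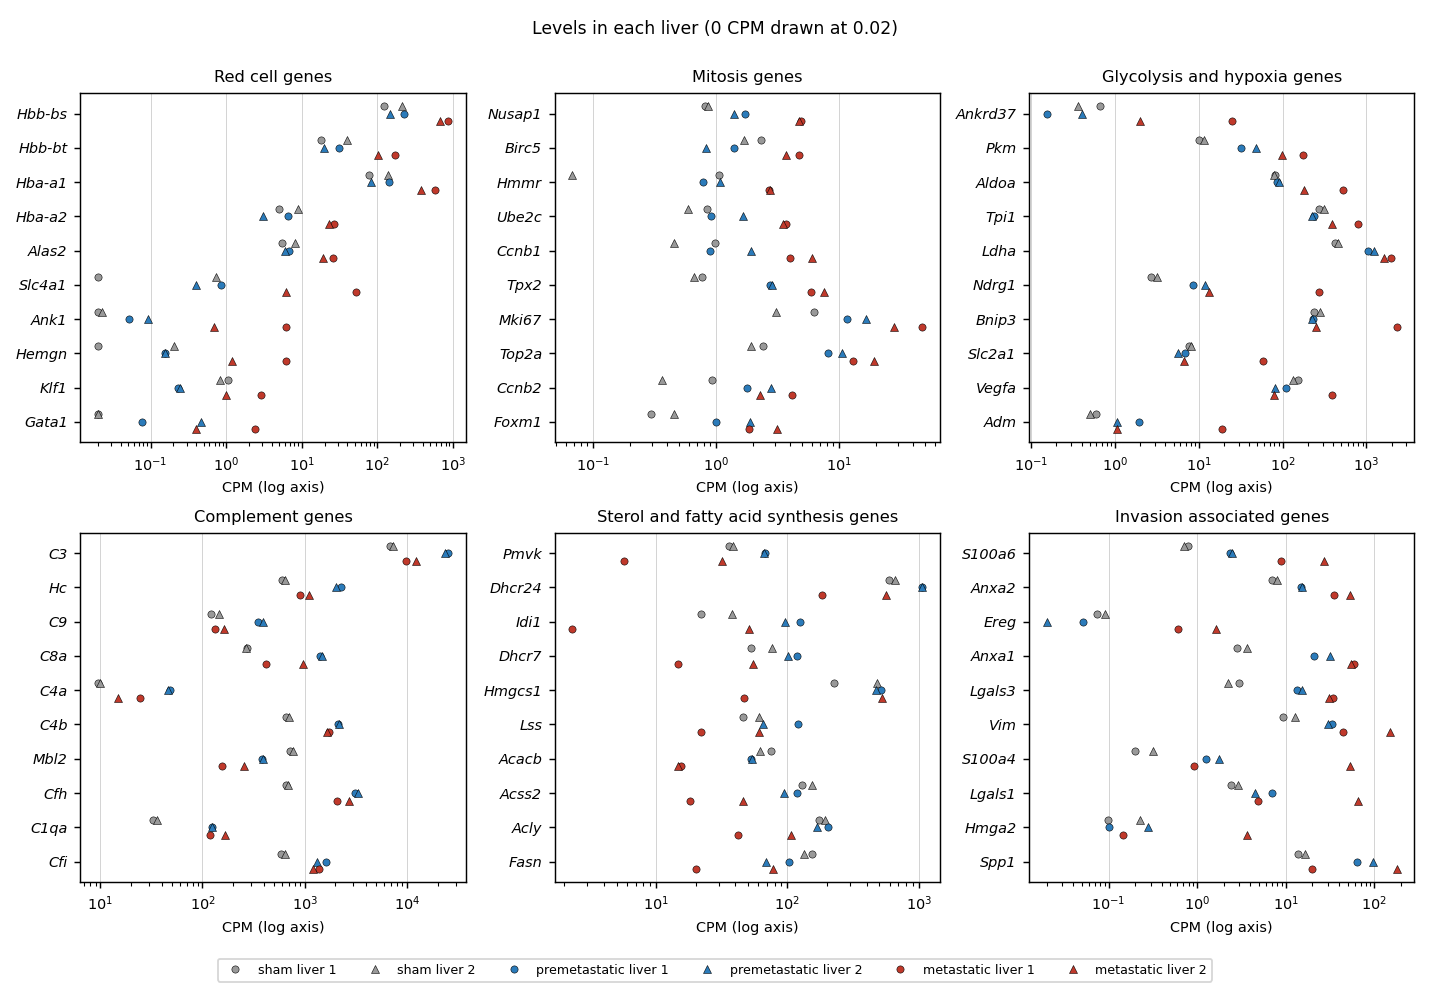
CPM (log axis) in each liver for 10 genes of each of 6 groups, with circles for liver 1 and triangles for liver 2 of a group and levels of 0 drawn at 0.02. For Hbb-bs and Nusap1 both metastatic livers lie above the other livers, for Bnip3 and Slc2a1 metastatic liver 1 alone lies above all others, for S100a4 and Lgals1 metastatic liver 2 alone does, and for C3, C9 and Acacb both lie below the premetastatic livers.

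Genes associated with invasion and growth of carcinoma cells were higher in metastatic livers, and liver 2 was the higher one in 8 of the genes above. Of 24 tested genes 14 (58.3%) lay above and 1 below, and DESeq2 called 10 higher and 0 lower. S100a6, a calcium-binding protein of motile cells, was at 2.34 and 2.44 CPM in premetastatic, 8.81 and 27.3 CPM in metastatic and 0.788 and 0.702 CPM in sham livers (log2 difference 2.91 ± 0.54, DESeq2 adjusted p = 0.000101). Anxa2, annexin A2, was at 14.9 and 15.2 against 34.9 and 52.7 CPM (DESeq2 adjusted p = 0.0003004) and its partner S100a10 at 11.4 and 10.5 against 26.2 and 36.8 CPM. Ereg, the EGF receptor ligand epiregulin, was at 0.0509 and 0 against 0.612 and 1.64 CPM. For S100a6, Anxa2, S100a10 and Ereg metastatic liver 2 was the higher one. S100a4, a protein of metastatic and fibroblastic cells, was at 1.27 and 1.76 against 0.933 and 52.8 CPM, and Lgals1, galectin-1, at 7.03 and 4.55 against 4.899 and 64.7 CPM, so that metastatic liver 2 was high while liver 1 lay within or below the premetastatic range. Met, the receptor of hepatocyte growth factor, was the 1 gene below (106 and 123 against 40.8 and 80.9 CPM), and its ligand Hgf was at 23.9 and 26.2 against 12.5 and 17.7 CPM.

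Epithelial keratins and adhesion genes lay above in 6 of 9 tested genes. Krt8 (136 and 131 against 306 and 164 CPM) and Krt18 (115 and 94.5 against 231 and 168 CPM), the keratins of hepatocytes and simple epithelia, and Cdh1, E-cadherin (22.4 and 17.9 against 78.2 and 30.9 CPM), had the higher levels of these. Epcam, which marks most colon carcinomas, was at 0.204 and 0.124 CPM in premetastatic and 0.379 and 0.343 CPM in metastatic livers, close to the limit of detection. Some list genes had too few livers with reads to be tested and were singled out after their values were seen. The intestinal keratin Krt20 had 250 reads in metastatic liver 2 and 0 in all others, the matrix protease Mmp3 had 121 in metastatic liver 2 and 0 in all others, and the intestinal mucin Muc2 had 86 in metastatic liver 1, 0 in metastatic liver 2 and 2 and 0 in premetastatic livers. The amount of tumor in each metastatic liver was not measured here.

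Matrix genes lay above more often than all genes, with 7 of 15 collagens above and 2 below and 8 of 19 matrix glycoproteins and enzymes above and 2 below. Col1a1, the main chain of fibrillar collagen I, was at 2.85 and 1.55 CPM in premetastatic, 6.24 and 8.49 CPM in metastatic and 1.68 and 2.06 CPM in sham livers (DESeq2 adjusted p = 0.0115), and Col1a2 at 13.1 and 9.53 against 21.96 and 36.1 CPM (DESeq2 adjusted p = 0.0196). Lox and Loxl2, which crosslink collagen, were at 0.204 and 0.0619 against 12.7 and 0.785 CPM and at 3.92 and 3.001 against 25.3 and 7.63 CPM. The crosslinking genes were thus led by metastatic liver 1 and the chains of collagen I by liver 2. Fn1, fibronectin, a gene the study follows in the niche, was at 4436 and 3682 CPM in premetastatic and 3509.7 and 3154 CPM in metastatic livers and at 910.4 and 936 CPM in sham livers, which left a gap of -0.07 that closed when the length trend was removed. Lrat, the retinol-storing enzyme of stellate cells, was at 12.7 and 15.3 against 26.7 and 29.7 CPM (DESeq2 adjusted p = 0.0103).

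Endothelial genes split. Esm1, a marker of tip cells in growing vessels, was at 0.102 and 0.124 CPM in premetastatic, 1.46 and 4.097 CPM in metastatic and 0.0493 and 0.0679 CPM in sham livers (DESeq2 adjusted p = 0.000134), and Apln, another tip cell gene, was at 0 CPM in the 4 other livers and 2.36 and 0.687 CPM in the metastatic livers (DESeq2 adjusted p = 0.414). Lyve1, a marker of sinusoidal and lymphatic endothelium, was at 9.32 and 8.48 against 112 and 14.2 CPM, high in metastatic liver 1. By contrast Ehd3 (99.2 and 106 against 13.97 and 31.9 CPM, DESeq2 adjusted p = 0.000113), Dnase1l3 (30.4 and 35.5 against 14.5 and 18.1 CPM, DESeq2 adjusted p = 0.00996) and Kdr (37.6 and 39.2 against 22.7 and 27.4 CPM), also expressed by sinusoidal endothelium, lay below, so that sinusoidal genes did not share a direction. In all, 6 of 27 tested endothelial genes lay above and 9 below (22.2% and 33.3%), while Pecam1, common to all endothelium, overlapped at 24.01 and 30.3 against 35.9 and 24.1 CPM.

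**Figure D5:**
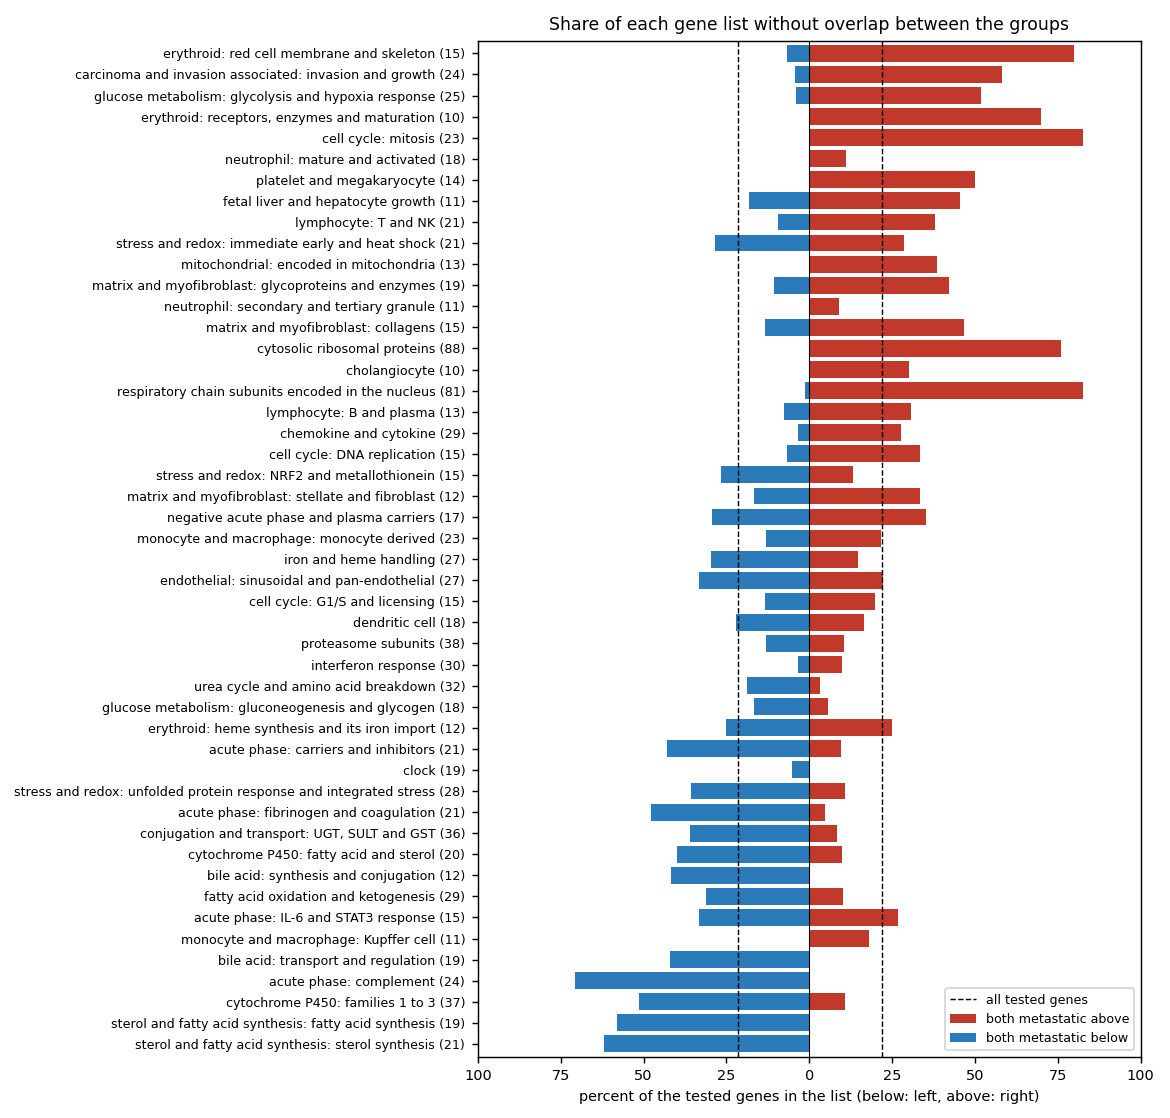
Percent of the tested genes of each list (number in brackets) with both metastatic livers above (red, right) or both below (blue, left) both premetastatic livers, ordered by median log2 difference. Dashed lines mark 21.9% and 21.5% of all tested genes, and mitosis (82.6% above), complement (70.8% below) and sterol synthesis (61.9% below) lie far from them.

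Genes of the innate immune cells that the study follows overlapped in most cases. Of 38 tested neutrophil genes 4 (10.5%) lay above and 1 (2.63%) below, under the background on both sides, and 2 and 4 with the length trend removed. S100a8 was at 73.97 and 142 CPM in premetastatic, 272 and 121 CPM in metastatic and 0.394 and 0.634 CPM in sham livers, and S100a9 at 109 and 226 CPM in premetastatic, 403 and 165 CPM in metastatic and 1.53 and 2.15 CPM in sham livers. Mpo, myeloperoxidase, was at 14.5 and 35.98 against 19.3 and 21.7 CPM and Mmp9 at 1.66 and 4.24 against 8.89 and 2.99 CPM. All tumor-bearing livers were thus far above sham livers for these genes, while the groups with tumors overlapped. With 2 livers per group a difference of the size of their spread was not detectable. Of 34 monocyte and macrophage genes 7 lay above and 3 below, but 5 and 5 with the length trend removed. Clec4f, which marks Kupffer cells, was at 265 and 355 against 163 and 318 CPM.

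T and NK cell genes lay above in 8 of 21 (38.1%) and below in 2 (9.52%). With the length trend removed 6 lay above and 2 below, nearer to the 21.3% of all genes above. Cd8a was at 0.407 and 0.217 CPM in premetastatic and 0.787 and 1.72 CPM in metastatic livers, and the perforin gene Prf1 at 0.306 and 0.124 against 0.612 and 0.589 CPM. Both genes had few reads, and Prf1 lay close to the limit of detection in premetastatic liver 2. DESeq2 called 0 of the 8 genes above. Tigit, an inhibitory receptor of T cells, was at 98.5 and 111 against 44.1 and 45.02 CPM (DESeq2 adjusted p = 0.0001297) and at 87.5 and 70.5 CPM in sham livers, unlike the other genes of its list, whose levels were far lower. Cd274, the gene of PD-L1, was at 2.19 and 1.08 against 4.37 and 4.05 CPM. Of 30 interferon response genes 3 lay above and 1 below, and their median was -1.04 in metastatic liver 1 and 0.45 in liver 2.

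Complement genes, most of them products of hepatocytes, lay below in metastatic livers. Of 24 tested genes 17 (70.8%) lay below and 0 above, and 18 and 0 with the length trend removed. The summed level of the list was 43584 and 41811 CPM in premetastatic, 21627 and 26491 CPM in metastatic and 14123 and 14798 CPM in sham livers. C3, the central component, was at 25305 and 23608 CPM in premetastatic, 9770.0 and 12363 CPM in metastatic and 6839.9 and 7291 CPM in sham livers (log2 difference -1.14 ± 0.24, DESeq2 adjusted p = 0.000472). Metastatic livers thus lay between sham and premetastatic livers. Hc, the gene of C5, was at 2248 and 2026 against 896 and 1091 CPM (DESeq2 adjusted p = 0.000559), and C9, the pore-forming component, at 351 and 389 against 134 and 163 CPM (DESeq2 adjusted p = 5.68e-05). C4a, at 48.00 and 45.7 against 24.7 and 14.9 CPM, is a close copy of C4b, and the assignment of their reads is uncertain. C1qa, a product of macrophages, overlapped at 123 and 124 against 117 and 165 CPM.

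Of 63 other tested acute phase genes 27 lay below and 7 above, and 32 and 6 with the length trend removed. Serpina3k, a serine protease inhibitor with close copies, was one of those above at 9469 and 8904 against 16014 and 10267 CPM. Among 21 coagulation genes, 10 lay below and 1 above, including the fibrinogen chain Fga at 20453 and 18203 CPM in premetastatic, 13265 and 13462 CPM in metastatic and 2446 and 2252 CPM in sham livers. Saa1, serum amyloid A1, was at 7567 and 12394 against 613 and 6514 CPM with 17.4 and 61.1 CPM in sham livers, and Itih4 at 8591 and 8870.2 against 2782 and 5062 CPM (DESeq2 adjusted p = 0.0321). Metastatic liver 1 was the lower one for Saa1 and Itih4. Haptoglobin, Hp (19294 and 23987 against 17985 and 22315 CPM), hemopexin, Hpx (23316 and 22256 against 22707 and 25928 CPM), and lipocalin 2, Lcn2 (1508 and 2819.7 against 1629 and 3401 CPM), overlapped and were far above their sham levels of 2281 and 2343 CPM for Hp, 3048 and 2961 CPM for Hpx and 7.76 and 7.65 CPM for Lcn2.

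Of 15 tested genes of the IL-6 and STAT3 response 4 lay above and 5 below, and DESeq2 called 3 lower, all of which carry the inflammatory signal into the cell. Stat3 was at 229 and 226 CPM in premetastatic, 134 and 130.2 CPM in metastatic and 66.96 and 62.4 CPM in sham livers (log2 difference -0.79 ± 0.18, DESeq2 adjusted p = 0.007699). Il6st, the signaling receptor gp130, was at 181 and 203 against 59.6 and 96.6 CPM (DESeq2 adjusted p = 0.00598), and Il1r1, the interleukin 1 receptor, at 266 and 386 against 99.2 and 149 CPM (DESeq2 adjusted p = 0.0295). Cish (7.16 and 3.87 against 20.4 and 11.2 CPM), Pim1 (6.54 and 12.1 against 26.3 and 14.9 CPM) and Cebpd (13.3 and 10.1 against 25.1 and 21.8 CPM) of the same list lay above instead, with DESeq2 adjusted p values of 0.202, 0.137 and 0.438. Socs3 (36.1 and 24.1 against 9.86 and 30.99 CPM) overlapped. Il6 itself was near the limit of detection in premetastatic livers (0.255 and 0.0619 CPM) and at 1.400 and 0.515 CPM in metastatic livers. Lrg1, the secreted glycoprotein at the center of the study, was at 1012 and 1091 CPM in premetastatic, 622 and 892 CPM in metastatic and 69.6 and 79.3 CPM in sham livers (log2 difference -0.47 ± 0.25, DESeq2 adjusted p = 0.425). Its gap of -0.18 lay near the edge of overlap. Of 34 tested genes that the study names, 4 lay above and 10 below, 3 of them called lower by DESeq2. Part of this list was followed in these mouse models, and the rest comes from other material. Hgf, Pik3ca (47.2 and 42.5 against 26.6 and 27.4 CPM), Ets1 (39.04 and 37.6 against 25.8 and 30.6 CPM) and Eng (33.5 and 32.5 against 23.2 and 27.3 CPM) were among those below. The 4 genes above were Il6, the protease inhibitor Timp1 (0.8403 and 0.124 against 1.02 and 5.57 CPM), the cytokine Il1a (7.84 and 5.94 against 14.4 and 9.396 CPM) and Itgam, the myeloid integrin CD11b (9.78 and 13.7 against 16.2 and 15.04 CPM).

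Plasma proteins that decline in the acute phase differed among themselves. Apoc3, an inhibitor of lipoprotein lipase, was at 971 and 1018 CPM in premetastatic, 3449 and 2245 CPM in metastatic and 1775 and 1933 CPM in sham livers (log2 difference 1.52 ± 0.27, DESeq2 adjusted p = 0.000113). Ttr, transthyretin, was at 3119.5 and 2677 against 5096 and 4450.2 CPM and Rbp4, which carries retinol with it, at 2593 and 2361 against 4611 and 3324 CPM. The short genes Apoc3, Ttr and Rbp4 kept their side, with smaller gaps, when the length trend was removed. Apob, the large structural protein of very low density lipoprotein, was at 6127 and 6393 against 3691 and 3160.5 CPM (DESeq2 adjusted p = 0.00498), and Serpina6, the corticosteroid carrier, at 124 and 173 against 2.62 and 49.1 CPM with 1197 and 1047 CPM in sham livers. Of 11 tested genes of fetal liver and hepatocyte growth 5 (45.5%) lay above and 2 (18.2%) below, and DESeq2 called 3 higher and 1 lower. Afp, the fetal counterpart of albumin, was at 71.9 and 28.4 CPM in premetastatic, 273 and 164 CPM in metastatic and 3.55 and 3.83 CPM in sham livers (DESeq2 adjusted p = 0.00251). The imprinted H19 went the other way, at 3572 and 2379 CPM in premetastatic, 763 and 1439 CPM in metastatic and 154 and 145 CPM in sham livers.

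Cytochrome P450 genes of families 1 to 3, which oxidize drugs and steroids, lay below in 19 of 37 (51.4%) and above in 4 (10.8%). Cyp2e1 was at 3879.8 and 3946 CPM in premetastatic, 2059 and 2607 CPM in metastatic and 7687 and 7172 CPM in sham livers (DESeq2 adjusted p = 0.0486). Cyp2c70, which hydroxylates bile acids in mice, was at 1032 and 943 against 546 and 449 CPM (DESeq2 adjusted p = 0.002296), and Cyp2c38 at 94.3 and 90.7 against 18.9 and 46.98 CPM. Cyp3a11, a main target of PXR, went the other way at 345 and 305 against 1055 and 458 CPM, with 1767 and 1462 CPM in sham livers. Cyp4f14, a fatty acid hydroxylase, was at 136 and 123 against 33.7 and 48.9 CPM (log2 difference -1.65 ± 0.25, DESeq2 adjusted p = 8.69e-06). Many P450 genes have near-identical copies among which reads may be divided.

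Bile acid genes had 13 of 31 below and 0 above, and 14 and 2 with the length trend removed. Abcb11, the bile salt export pump, was at 382 and 399 CPM in premetastatic, 115 and 189 CPM in metastatic and 505 and 576 CPM in sham livers (DESeq2 adjusted p = 0.003500), and Abcc2, the canalicular conjugate pump, at 249 and 193 against 82.5 and 94.3 CPM (DESeq2 adjusted p = 0.000104). Akr1d1 (171 and 182 against 74.1 and 99.5 CPM) and Slc27a5 (914 and 863 against 504 and 499 CPM), enzymes of bile acid synthesis and conjugation, were also lower. Cyp7a1, the rate-limiting enzyme, varied within both groups (319 and 16.3 against 6.36 and 68.5 CPM) and overlapped. Conjugating enzymes of the UGT, SULT and GST families lay below in 13 of 36 and above in 3, among them Ugt2b1 at 139 and 145 against 62.5 and 85.7 CPM (DESeq2 adjusted p = 0.0195).

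Genes of sterol and fatty acid synthesis had 24 of 40 (60%) below and 0 above, and 22 and 0 with the length trend removed. For sterol synthesis the median difference was -2.88 in metastatic liver 1 and -0.31 in liver 2. Idi1, isopentenyl diphosphate isomerase, was at 126 and 95.6 CPM in premetastatic and 2.304 and 51.4 CPM in metastatic livers, and Pmvk, phosphomevalonate kinase, at 67.3 and 65.7 against 5.75 and 32.02 CPM. Hmgcs1 (512 and 475 against 47.1 and 522 CPM), at the entry of the pathway, overlapped, with only metastatic liver 1 low. DESeq2 called 0 of the 21 sterol genes. Acacb, the acetyl-CoA carboxylase that restrains fatty acid oxidation, was by contrast low in both metastatic livers, at 52.9 and 53.8 CPM in premetastatic, 15.5 and 14.8 CPM in metastatic and 75.2 and 61.9 CPM in sham livers (log2 difference -1.81 ± 0.20, DESeq2 adjusted p = 9.96e-11). Acss2, which makes acetyl-CoA from acetate, was at 118 and 93.95 against 18.1 and 45.5 CPM (DESeq2 adjusted p = 0.0114). Of 29 genes of fatty acid oxidation and ketogenesis 9 lay below and 3 above, and Ppara, their nuclear receptor, was at 149 and 242 against 91.2 and 88.6 CPM (DESeq2 adjusted p = 0.0179).

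The genes with the widest gaps downward included several outside these lists. Ddi2, a protease that processes the factor NRF1 (chr4:141683563-141723419), had the smallest edgeR adjusted p of all genes, 0.113, and was at 36.6 and 39.4 CPM in premetastatic, 6.59 and 7.04 CPM in metastatic and 13.03 and 12.2 CPM in sham livers (log2 difference -2.48 ± 0.19, DESeq2 adjusted p = 3.39e-21). Garem1, an adaptor of EGF receptor signaling, was at 40.5 and 38.2 against 10.6 and 10.8 CPM (DESeq2 adjusted p = 1.51e-12). In both genes the livers of a group were close to each other, and metastatic livers were nearer to the sham livers than premetastatic livers were. The uncharacterized 9530077C05Rik was at 40.8 and 35.8 CPM in premetastatic, 1.28 and 4.097 CPM in metastatic and 0.0493 and 0 CPM in sham livers, and Tmc5 at 14.5 and 16.1 CPM in premetastatic, 0.933 and 3.705 CPM in metastatic and 0.0985 and 0.0226 CPM in sham livers. These were thus at or near 0 in sham and highest in premetastatic livers, as was the citrate transporter Slc13a5 at 7.66 and 7.27 CPM in premetastatic, 0.642 and 1.94 CPM in metastatic and 0.296 and 0.611 CPM in sham livers. The plasma protein A1bg was at 5.63 and 35.2 CPM in premetastatic, 0 and 0.442 CPM in metastatic and 135 and 140.2 CPM in sham livers, and the carboxylesterase Ces3b at 28.6 and 39.5 CPM in premetastatic, 3.53 and 7.88 CPM in metastatic and 152 and 238 CPM in sham livers. The peptidase Mme, neprilysin, was at 18.4 and 28.1 CPM in premetastatic, 5.37 and 5.103 CPM in metastatic and 79.2 and 57.7 CPM in sham livers. For A1bg, Ces3b and Mme sham livers were thus highest and metastatic livers lowest. The other genes of this set were the transporter Slc10a5 (32.8 and 35.7 against 2.800 and 8.24 CPM), the desmoglein Dsg1c (42.2 and 34.6 against 3.500 and 9.54 CPM), Gm46408 (13.3 and 11.8 against 1.46 and 3.09 CPM) and LOC115489130 (11.7 and 8.01 against 2.25 and 1.74 CPM).

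Of 21 tested immediate early and heat shock genes 6 lay above and 6 below. Hspa1b, an inducible heat shock protein of the HSP70 family, was at 91.8 and 90.3 CPM in premetastatic, 4.84 and 22.8 CPM in metastatic and 93.5 and 43.1 CPM in sham livers (DESeq2 adjusted p = 0.00514), and Hspb1, HSP27, at 3.97 and 2.75 against 0.408 and 0.8096 CPM (DESeq2 adjusted p = 0.0153). Ern1, the sensor of unfolded proteins IRE1, was at 30.5 and 23.5 against 4.32 and 6.698 CPM (DESeq2 adjusted p = 5.02e-07), and 10 of 28 genes of the unfolded protein and integrated stress responses lay below and 3 above. Asns, asparagine synthetase, was one of those above at 1.299 and 1.05 against 5.34 and 7.97 CPM (DESeq2 adjusted p = 0.00547). Egr1 (32.6 and 19.5 against 146 and 46.96 CPM), Ier2 (12.99 and 15.9 against 86.8 and 26.5 CPM) and Ier3 (2.85 and 2.94 against 34.4 and 6.97 CPM) lay above, and among them Ier2 was at 12.02 and 14.7 CPM in sham livers. The median difference of the list was 1.14 in metastatic liver 1 and -0.36 in liver 2. Hspa1a and Hspa1b are near-identical copies between which reads may be divided.

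Several functions of the hepatocyte stayed near or under the background of genes without overlap. Of 32 tested genes of the urea cycle and amino acid breakdown 1 lay above and 6 below, of 18 genes of gluconeogenesis and glycogen 1 and 3, and of 24 hepatocyte transcription factors and regulators 1 and 4. Within these, Ppp1r3b, which targets protein phosphatase 1 to glycogen, was at 118 and 161 CPM in premetastatic and 58.8 and 34.9 CPM in metastatic livers (log2 difference -1.57 ± 0.38, DESeq2 adjusted p = 0.0103). Of 29 tested chemokine and cytokine genes 8 lay above and 1 below. Apart from Cxcl14, described above, Cxcl11, a ligand of CXCR3, was at 0.0509 and 0.0309 CPM in premetastatic, 0.262 and 1.47 CPM in metastatic and 1.18 and 2.17 CPM in sham livers (DESeq2 adjusted p = 0.0235). Of 10 tested markers of pancreas, muscle, fat and intestine 3 lay above and 1 below. Among those above, Fabp4, the fatty acid carrier of fat and of some endothelial cells, was at 14.2 and 14.1 against 145 and 28.6 CPM (DESeq2 adjusted p = 0.00534) and Amy2b, pancreatic amylase, at 2.09 and 1.702 against 10.9 and 5.99 CPM (DESeq2 adjusted p = 0.0114).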

How the data were processed

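The authors aligned reads of poly(A) RNA to mm10 with HISAT2 2.1.0 and counted uniquely mapped exon reads per gene with featureCounts of Subread 2.0.6, per the submitters' processing notes and the methods; the annotation and strand setting are not given in the sources used here. The deposited raw counts were used for all results, and the TPM values the authors calculated from them for an alternative and for gene length. Groups came from the sample labels, and their meaning was read from the study's text, which does not use these labels.

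Genes passing filterByExpr (minimum 10 counts) were fitted in edgeR 4.0.16 (R 4.3.3) by the quasi-likelihood test over all 6 livers with TMM scaling, and p values were adjusted by Benjamini-Hochberg at 0.05. The script was tested on simulated data. DESeq2 1.42.0, limma 3.58.1 on log2(TPM + 1) and log2(TPM + 0.1), other filters, scalings and fits and the omission of each liver were alternatives. Promoters were searched in Python 3.11.15 and matched by symbol.

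The genes named were the 15 per direction with the widest margin and at least 5 CPM, up to 4 per list and direction, the highest of each list and genes the study follows, of which not all are printed; some others were named after their values were seen. The comparison and its 61 gene lists were chosen with earlier results of these data known. The length alternative, 3 lists (ribosomal proteins, respiratory chain, proteasome, the last with 4 of 38 genes above and 5 below, and 2 and 10 with the length trend removed) and the motifs ACGTG, TTCNNNGAA and GGCGCC were added after the values were seen. P values measure the spread between livers of 2 per group. Results for some genes of the rule are not reported here.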

Additional observations from a re-analysis of the deposited data

How the results depend on the processing

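edgeR's count of 0 genes higher and 0 lower held for the other filters and scalings and with only the 4 livers compared. It also held for TPM in limma and with the length trend removed, but not for every omission of a liver. DESeq2 called 240 higher and 284 lower. Leaving out 1 liver gave 0 to 1312 genes higher and 0 to 1572 lower, where the calls came without intra-S replicate 1 (24 and 31) and without intra-S replicate 2 (1312 and 1572), which left metastatic livers with 1 sample, assumed to vary like the others. Genes above numbered 723 at a margin of 1.5 times and 293 at 2 times, and genes below 718 and 264. On the deposited TPM they numbered 2795 above and 4329 below. With 1 of the 4 livers left out, 5272 to 6657 genes lay above and 5092 to 6798 below, since fewer livers overlap less. With the replicate block the counts were 0 and 0, and same-numbered livers did not deviate together (correlations 0.04, -0.03 and 0.08 between pairs of groups), so the numbers pair nothing. The median log2 difference of all genes ran from -0.09 to 0.06 over the settings. List medians varied more, from 0.597 to 1.48 for mitosis, 0.586 to 2.12 for all erythroid genes and 0.301 to 1.90 for glycolysis and hypoxia. They ran from -0.667 to -0.396 for complement and from -2.89 to -0.321 for sterol synthesis. Some other lists changed sign, such as interferon response (-1.11 to 0.446). Of the log2 differences of the genes named, 2552 repeats kept direction and side of the threshold, 242 kept direction and passed the threshold, and 37 changed sign, none of them in a gene without overlap. With TPM, on the log2(TPM + 1) and log2(TPM + 0.1) scales, Ccng2 was at -0.0575 and -0.0827, Cxcl1 at -1.18 and -1.35 and Hpx at -0.0182 on both, and Ly6a at -0.12 on the second. With the length trend removed C1qa was at -0.0249, Hif1a at 0.0283, Hpx at -0.0303 and Lcn2 at -0.0690. Leaving out single livers gave log2 differences of Adm -0.494 to 3.67, C1qa -0.0747 to 0.420, Ccng2 -1.50 to 1.54, Clec4f -0.933 to 0.0329, Cxcl1 -4.83 to 2.09, Cyp7a1 -4.73 to 1.20, Gdf15 -2.89 to 3.87, Hif1a -0.244 to 0.152, Hmgcs1 -3.39 to 0.0804, Hp -0.269 to 0.0497, Hpx -0.00711 to 0.186, Lcn2 -0.411 to 0.723, Lgals1 -0.245 to 3.48, Ly6a -2.83 to 2.50, Mcm10 -1.86 to 0.279, Mpo -0.812 to 0.488, Pecam1 -0.171 to 0.402, Rab30 -1.11 to 3.17, S100a4 -0.700 to 5.13, S100a9 -0.0220 to 1.37, Socs3 -1.61 to 0.0412 and Vegfa -0.293 to 2.03. The causes were not tested. At 2 livers per group and levels near 0.0679 to 0.0928 CPM, differences of low genes are limited by counting error.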

Other observations

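Some genes placed the 2 metastatic livers on opposite sides of the premetastatic livers, by at least a factor of 2 each in 29 genes with metastatic liver 1 above and 33 genes with metastatic liver 2 above. Gdf15, a cytokine of cell stress, was at 37.2 and 0.393 CPM in metastatic livers 1 and 2, 1.27 and 4.61 CPM in premetastatic and 3.35 and 3.08 CPM in sham livers. Ccng2, an atypical cyclin, was at 116 and 14.01 CPM against 42.2 and 37.1 CPM, and Rab30, a small GTPase, at 108 and 5.496 CPM against 12.1 and 11.7 CPM. In the other direction Cxcl1, which attracts neutrophils, was at 1.57 and 191 CPM in metastatic livers 1 and 2, 28.3 and 61.4 CPM in premetastatic and 15.7 and 6.32 CPM in sham livers, and Ly6a, the stem cell antigen Sca-1, was at 0.233 and 9.52 CPM against 2.04 and 1.299 CPM. These genes were picked after their values were seen, from those with the largest gap between the metastatic livers.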
